A study of Homo sapiens with 8 samples.

Results

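The 10 genes described here make and control polyamines, or carry the hypusine modification that polyamines feed. They were taken as the rows of the deposited gene count table for ODC1, AMD1, SRM, SMS, OAZ1, AZIN1, SAT1, EIF5A, DHPS and DOHH, 10 of 78932 gene IDs. All 10 were among the 24289 genes that passed the filter on low counts. The study separated lysates of acute myeloid leukaemia cells on sucrose gradients and sequenced pooled fractions, to ask how overexpression of the prolyl hydroxylase OGFOD1 changes translated RNA. Its 4 groups were the heavy pool (fractions with 3 or more ribosomes) of cells labelled OE (OGFOD1 overexpression from a lentiviral vector), the heavy pool of control cells, the light pool (free ribonucleoproteins, monosomes and disomes) of cells labelled OE, and the light pool of control cells. Each group held 1 library labelled Molm13, a leukaemia line with a rearranged KMT2A gene, and 1 labelled U937, a line of monocytic character, so that 8 libraries came from 4 gradients. Library names of the control samples hold the letters Scr, and those of the other samples OE. Cells of all groups received cycloheximide, which holds ribosomes on the RNA. The labels give no time after transduction, clone or separate cultures for a line, so p-values here speak for the spread among these 8 libraries, which may be technical.

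Polyamines are small, positively charged metabolites that proliferating cells, leukaemia cells among them, need for growth. Ornithine decarboxylase (ODC1) makes putrescine, AMD1 supplies the aminopropyl donor, and the synthases SRM and SMS turn putrescine into spermidine and then spermine. Much of the control is translational: polyamines promote the frameshift that completes antizyme, and stall ribosomes on the short upstream reading frame of AMD1. Spermidine is also the substrate from which DHPS and DOHH build hypusine on a single lysine of eIF5A, a factor that keeps ribosomes moving through difficult peptide bonds and at stop codons.

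The smallest library, Molm13 OE heavy, held 25741930 counts and the largest, Molm13 control light, 89373133. OGFOD1 itself was at 25.3 and 12.4 CPM (reads of a gene per library total, brought to 1 scale by TMM, here and throughout) in the heavy pools labelled OE of Molm13 and U937, against 44.4 and 60.2 CPM in those of controls. In the light pools it was at 16.7 and 10.1 CPM in libraries labelled OE, against 33.0 and 49.8 CPM in controls. The target gene was thus lower under the OE label (log2 fold change -1.60, SE 0.30, edgeR adjusted p = 0.0178), and every genotype comparison below follows library labels that it goes against. The call was lost with the pools of each gradient summed (-1.60, adjusted p = 0.116), in a fit that called 0% of all genes. It was also lost with no line term (-1.56, adjusted p = 0.0529, 0.478% of all genes called) and without the U937 OE heavy library (-1.31). The direction was kept in each. How many genes separated the line labels depended on the tool: in a comparison added after the data were seen, edgeR called 0 of 24289 genes between Molm13 and U937 (2862 at an unadjusted p under 0.05), limma voom 1 and DESeq2 303. With edgeR the count was 412 with no filter on low counts, and 0 to 131 with 1 library left out. FLT3 was at 85.3 to 170 CPM under the Molm13 label, against 93.6 to 202 CPM under U937, and HOXA9 at 61.3 to 97.8 CPM, against 91.2 to 107 CPM. The myeloid markers CD33, SPI1, CEBPA and LYZ were present under both labels, from 44.4 CPM (SPI1) upwards. Others of that list were CSF3R at 55.8 to 165 CPM, MEIS1 at 16.2 to 31.3 CPM, MPO at 6.37 to 50.9 CPM and ITGAM at 6.21 to 53.8 CPM. The Molm13 control light library stood apart from the other light pools. Mitochondrial transcripts took 2.49% of its counts, against 19.8% to 23.3% in the other 3, and heavy and light pools of its gradient differed least, with an SD of 0.669 for the log2 difference over 9299 genes against 1.04 to 1.30 in the other 3 gradients. For the 10 genes, values without it are given beside the main comparisons.

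A few short stretches carry the known control points of RNAs described below and are shown for reference. The part of these stretches in the results was not tested. They come from GENCODE release 29 transcripts on GRCh38, plus strand for AMD1, OAZ1, EIF5A and EIF5AL1. The AMD1 upstream frame lies in exon 1, in the 5′ untranslated region, at chr6:110874796-110874816, with its start and stop codons in capitals, and spans 6 codons that end 289 bases before the main start.
AMD1 upstream frame: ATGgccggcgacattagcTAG
The OAZ1 frameshift site lies in the coding sequence at chr19:2271428-2271457. The capitals mark the stop codon of the first frame, at codon 69, which ribosomes must slip past by 1 base to complete antizyme.
OAZ1 frameshift site: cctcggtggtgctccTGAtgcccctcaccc
The third is the codon of the lysine that becomes hypusine, codon 50 of EIF5A, in capitals, at chr17:7309771-7309797. It is set beside the same codon of the near-identical copy EIF5AL1 at chr10:79512785-79512811 and of the paralog EIF5A2 at chr3:170907645-170907671 on the minus strand.
EIF5A: tcgaagactggcAAGcacggccacgcc
EIF5AL1: tcgaagactggcAAGcacggccacgcc
EIF5A2: tccaaaactggaAAGcatggtcatgcc
EIF5AL1 matches EIF5A in 460 of 465 coding bases, so reads of these 2 genes may have been split between them. In the counts, 4 copies of EIF5A named in the annotation held 0.721% as many reads as EIF5A itself.

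Compared per length of exon sequence, antizyme mRNA was the most abundant. The mean level over 8 libraries was 342 CPM per kb for OAZ1, 96.6 for SRM, 58.5 for EIF5A, 46.8 for SAT1, 43.7 for SMS, 37.7 for ODC1, 26.9 for AZIN1, 25.1 for DHPS, 20.3 for DOHH and 15.7 for AMD1. The lowest OAZ1 library, at 174 CPM per kb, lay above the highest library of every other gene (170 CPM per kb, SRM). The ranges of neighbours further down this order overlapped. The genes lowest in this order had wide ranges: DOHH ran from 2.79 to 44.4 CPM per kb, on counts of 286 to 6683 reads, and AMD1 from 3.02 to 43.4 CPM per kb, on 502 to 16343 reads.

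**Figure D1:**
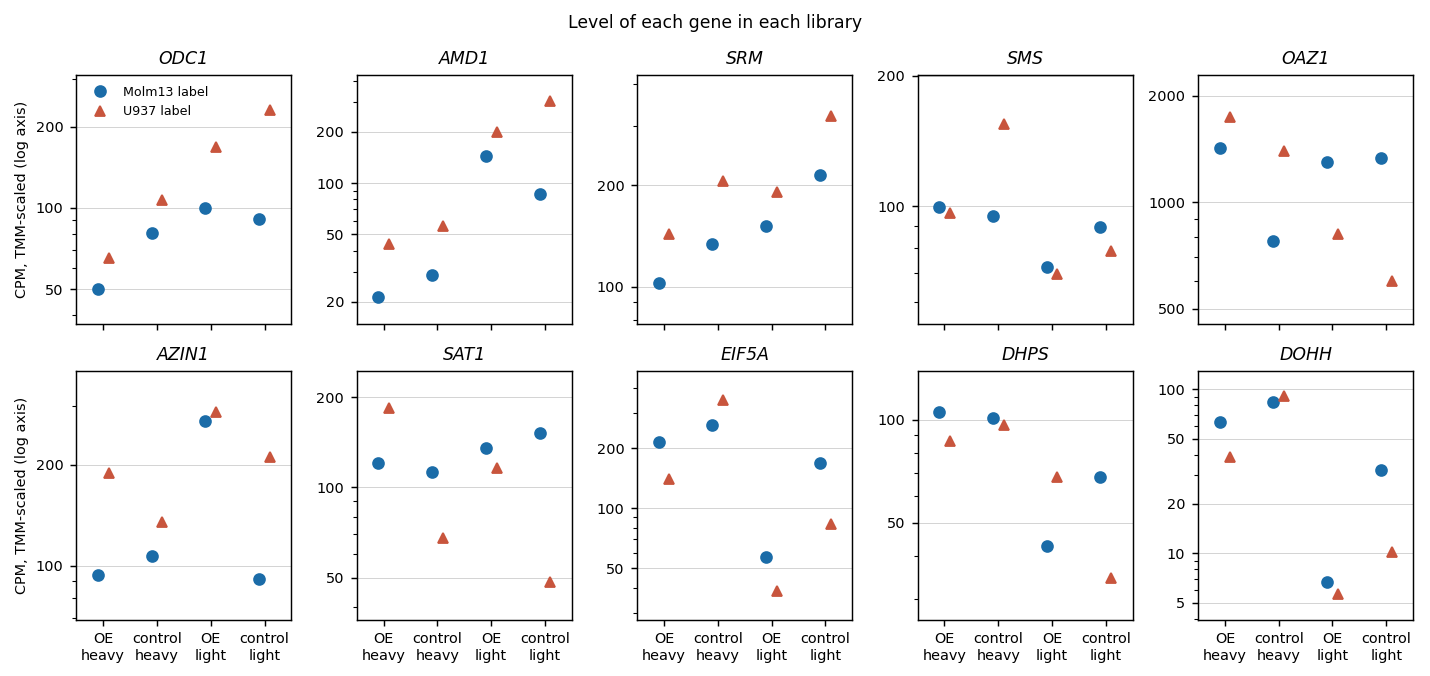
Level of each of the 10 genes in each of the 8 libraries, in CPM with TMM scaling on a log axis; circles are libraries labelled Molm13 and triangles those labelled U937, 1 library per point. DOHH, DHPS and SMS lay higher in all 4 heavy pools than in any light pool, and AMD1 lower in all 4 heavy pools.

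The first question was how each mRNA was shared between heavy and light pools. The hypusine branch lay towards heavy polysomes: EIF5A, DHPS and DOHH were all higher in the heavy pools. The enzymes that start polyamine synthesis lay towards the light pools: ODC1 and AMD1 were lower in the heavy pools. The other 5 genes did not pass the threshold (edgeR quasi-likelihood test, Benjamini-Hochberg adjusted p under 0.05 over all genes tested). In all, 5 of the 10 genes passed, 3 higher and 2 lower, against 28.6% of all genes tested (15.8% higher and 12.8% lower). Leaving out Molm13 control light gave 7 of 10, against 35.8% of all genes tested in that fit. Leaving out Molm13 OE heavy, Molm13 OE light, U937 OE heavy or U937 control heavy gave 3, against 15%, 15.2%, 14.3% and 15% of all genes tested. The median log2 fold change of the 10 genes was 0.28, against -0.04 for all genes tested. These values compare shares within each pool's library, so they do not give the fraction of an mRNA that was on polysomes.

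ODC1 (ENSG00000115758, chromosome 2, 10439968 to 10448504, minus strand), the rate-limiting enzyme of the pathway, was at 50.3, 80.7, 65.2 and 107 CPM in the heavy pools of Molm13 OE, Molm13 control, U937 OE and U937 control. The light pools of the same gradients, in the same order, held 99.6, 91.0, 169 and 232 CPM. Every gradient had less ODC1 in its heavy than in its light pool, and the U937 control heavy library lay above the lowest light libraries, so the groups overlapped. The fitted heavy minus light log2 fold change was -0.92 (SE 0.27, adjusted p = 0.0221), and -1.10 (adjusted p = 0.000531) without Molm13 control light. The call was lost without Molm13 OE heavy (adjusted p = 0.0791), Molm13 OE light (0.0813), U937 OE heavy (0.189), U937 OE light (0.0506) or U937 control heavy (0.0931).

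AMD1 (ENSG00000123505, chromosome 6, 110874770 to 110895713, plus strand), S-adenosylmethionine decarboxylase, showed the widest gap of the genes that lay towards the light pools. It was at 21.2, 28.5, 43.6 and 56.1 CPM in the heavy pools of Molm13 OE, Molm13 control, U937 OE and U937 control. Its light pool levels in these gradients were 145, 85.9, 199 and 305 CPM. All heavy libraries lay below all light libraries. The fitted log2 fold change stood at -2.29 (SE 0.29, adjusted p = 0.000598), and -2.48 without Molm13 control light. It passed in all 8 fits that left out 1 library, and stood 87th from the lowest among 9299 genes with a mean of at least 10 CPM. The AMD1 transcript used as reference held the 1 upstream frame printed above, and 44.1% of 19411 protein-coding genes had at least 1 upstream frame by the same search, an ATG with an in-frame stop before the main start.

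The aminopropyl transferases gave values in opposite directions that did not pass. SRM, spermidine synthase, was at 103, 134, 143 and 206 CPM in the heavy pools of Molm13 OE, Molm13 control, U937 OE and U937 control, against 152, 215, 191 and 322 CPM in the light pools. It was lower in the heavy pool in 4 of 4 gradients (log2 fold change -0.57, SE 0.26, adjusted p = 0.112). SMS, spermine synthase, was at 99.5, 94.6, 96.3 and 155 CPM in the heavy pools, against 72.4, 89.6, 69.6 and 78.8 CPM in the light pools. All heavy SMS libraries lay above all light ones (0.51, SE 0.26, adjusted p = 0.155). SRM passed with DESeq2 (adjusted p = 0.0281) and with upper-quartile scaling (0.0454). Without Molm13 control light SRM was at -0.58 and SMS at 0.63, and neither passed.

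The regulators of ODC did not pass either. OAZ1, the antizyme that carries ODC to the proteasome, was at 1427, 775, 1742 and 1397 CPM in the heavy pools of Molm13 OE, Molm13 control, U937 OE and U937 control. Their light pools held 1302, 1335, 815 and 599 CPM. The groups overlapped, and the gradient of Molm13 control went the other way from the other 3 (log2 fold change 0.42, SE 0.39, adjusted p = 0.448). Without Molm13 control light the value was 0.76 (adjusted p = 0.0363), and over the 8 fits that left out 1 library it ran from 0.047 (without U937 control heavy) to 0.79 (without Molm13 control heavy). OAZ1 shares 236 exon bases with JSRP1 on the opposite strand. AZIN1, the antizyme inhibitor that frees ODC, was at 93.9, 107, 188 and 135 CPM in the heavy pools, against 269, 91.4, 288 and 211 CPM in the light pools. Here too the gradient of Molm13 control went the other way (-0.66, SE 0.28, adjusted p = 0.0999), and without its light library the value was -0.79 (adjusted p = 0.0147). AZIN1 also passed with DESeq2 (adjusted p = 0.0316) and with upper-quartile scaling (0.0408), and it shares 344 exon bases with its antisense gene AZIN1-AS1. SAT1, the acetyltransferase that opens polyamine breakdown, was at 121, 113, 183 and 67.7 CPM in the heavy pools, against 135, 152, 116 and 48.4 CPM in the light pools. The SAT1 groups overlapped almost fully (0.13, SE 0.33, adjusted p = 0.797), and without Molm13 control light the value was 0.58 (adjusted p = 0.0913).

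EIF5A (ENSG00000132507, chromosome 17, 7306999 to 7312463, plus strand), the factor that carries hypusine, was at 216, 262, 140 and 350 CPM in the heavy pools of Molm13 OE, Molm13 control, U937 OE and U937 control. The matching light pools held 57.2, 169, 38.7 and 83.4 CPM. Each gradient had more EIF5A in its heavy pool, and the groups overlapped only through Molm13 control light, which lay above U937 OE heavy. The fitted log2 fold change stood at 1.64 (SE 0.30, adjusted p = 0.00236), and 1.85 without Molm13 control light. It passed in all 8 fits that left out 1 library. EIF5A shares 241 exon bases, 8.56% of its length, with GPS2 on the opposite strand, which was itself higher in the heavy pools (1.28, SE 0.28). A read in such a shared stretch went into the counts of both genes.

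DHPS (ENSG00000095059, chromosome 19, 12675717 to 12681902, minus strand), which attaches the aminobutyl group of spermidine to eIF5A, was at 105, 101, 86.5 and 96.5 CPM in the heavy pools of Molm13 OE, Molm13 control, U937 OE and U937 control. DHPS levels in their light pools were 42.7, 68.2, 67.9 and 34.4 CPM. All heavy libraries lay above all light ones. The fitted log2 fold change stood at 0.87 (SE 0.28, adjusted p = 0.0357), and 1.22 (adjusted p = 0.000247) without Molm13 control light. The call was lost without any 1 of 6 other libraries: Molm13 OE heavy (adjusted p = 0.127), Molm13 OE light (0.178), Molm13 control heavy (0.0604), U937 OE heavy (0.108), U937 control heavy (0.115) or U937 control light (0.0675). It was also lost with upper-quartile scaling (0.69, adjusted p = 0.0764). DHPS shares 1157 exon bases, 38.5% of its length, with a readthrough gene (ENSG00000285589), so its counts are uncertain. It also shares 116 exon bases with WDR83 on the opposite strand. The readthrough gene (1.14, SE 0.34) and WDR83 (1.32, SE 0.33) were themselves higher in the heavy pools. Their mean counts were 24087 and 10051. The part of shared reads in the DHPS value was not tested.

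DOHH (ENSG00000129932, chromosome 19, 3490822 to 3500940, minus strand), the iron-dependent hydroxylase that completes hypusine, had the widest gap of the 10 genes. It was at 62.8, 83.0, 38.5 and 90.2 CPM in the heavy pools of Molm13 OE, Molm13 control, U937 OE and U937 control. Their light pools held as little as 6.74, 32.0, 5.68 and 10.2 CPM. All heavy libraries lay above all light ones, with Molm13 control light nearest to them. The fitted log2 fold change stood at 2.60 (SE 0.30, adjusted p = 0.000519), and 3.00 without Molm13 control light. It passed in all 8 fits that left out 1 library, and stood 13th from the highest among the 9299 genes with a mean of at least 10 CPM, where EIF5A stood 465th and DHPS 2318th.

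**Figure D2:**
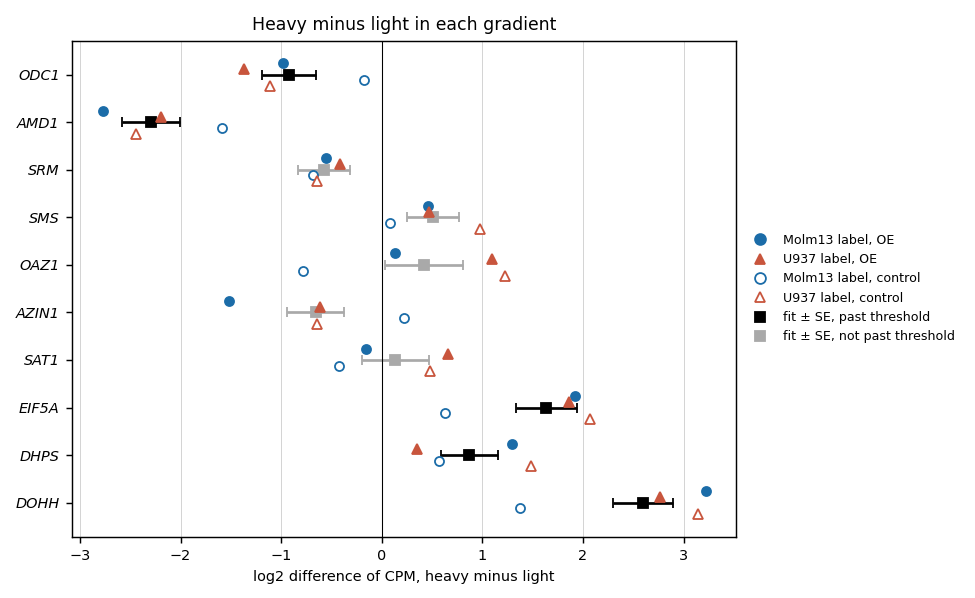
Log2 difference of CPM, heavy minus light, for each of the 10 genes; coloured points are the 4 gradients (filled for the OE label, open for control), and squares are the fitted mean over both genotypes with its SE, black where the adjusted p was under 0.05. DOHH, EIF5A and DHPS lay right of 0 and AMD1 and ODC1 left of 0 in all 4 gradients, with the Molm13 control gradient nearest to 0 for DOHH, EIF5A, AMD1 and ODC1.

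Within each genotype label the same comparison rested on 2 gradients. Under the OE label 4 of 10 genes passed, against 21% of all genes tested (12.9% higher and 8.1% lower): DOHH (log2 fold change 2.98, SE 0.43, adjusted p = 0.00478) and EIF5A (1.89, SE 0.43, adjusted p = 0.0102) were higher in the heavy pools. AMD1 (-2.52, SE 0.41, adjusted p = 0.00522) and ODC1 (-1.17, SE 0.38, adjusted p = 0.0438) were lower. In control cells 2 of 10 passed, against 1.08% of all genes tested (0.206% higher and 0.873% lower): DOHH (2.21, SE 0.42, adjusted p = 0.0342) was higher and AMD1 (-2.07, SE 0.41, adjusted p = 0.0380) lower. Without Molm13 control light 6 genes passed under the OE label, against 28.4% of all genes tested in that fit, and 4 in control cells, against 15.2%. In the control cells of that fit DOHH was at 2.98 and AMD1 at -2.49. Leaving out U937 OE heavy gave 0 genes under either label, in a fit that called 0% of all genes under OE and 0.279% in control cells, with DOHH at 3.06 (adjusted p = 0.0508) under OE. Leaving out Molm13 or U937 control heavy gave 0 in control cells, where these fits called 0% and 0.00375% of all genes. The count under OE was 1 when Molm13 OE light was left out (1.24% of all genes), and 2 when Molm13 OE heavy (4.06%) or U937 OE light (15.8%) was. In control cells it was 1 when Molm13 OE heavy was left out (0.472%). The gene-by-gene difference between labels was tested as the interaction of genotype and pool. It ran from -0.86 (AZIN1) to 0.77 (DOHH), and 0 of 10 genes passed with edgeR, at an unadjusted p under 0.05 or adjusted (smallest adjusted p = 0.808), against 0% of all genes tested; DESeq2 and limma voom also called 0 of the 10. Without Molm13 control light the DOHH interaction was 0.045 and that of AZIN1 was -0.48. Without U937 control light that of DOHH was 1.43 (adjusted p = 0.0984), and without U937 OE light that of AZIN1 was -1.24 (adjusted p = 0.645).

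The genotype labels were then compared over both pools. DOHH was lower in the libraries labelled OE, and it was the 1 gene of 10 that passed, against 4.37% of all genes tested (2.01% higher and 2.36% lower). EIF5A had a value of similar size that narrowly missed the threshold. The polyamine enzymes had smaller values, and none passed. These values average differences in share within the heavy and the light libraries, so they do not give the total amount of an mRNA in the cells. In bulk libraries, a smaller number of cells that hold an mRNA and less of it per cell cannot be told apart either.

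DOHH was at 62.8 CPM (Molm13) and 38.5 CPM (U937) in the heavy pools labelled OE, against 83.0 and 90.2 CPM in those of controls. In the light pools it was at 6.74 and 5.68 CPM under the OE label, against 32.0 and 10.2 CPM in controls. It was lower under the OE label in 4 of 4 pairs, and in each pool both OE libraries lay below both control libraries. The fitted log2 fold change stood at -1.25 (SE 0.29, adjusted p = 0.0336). Without Molm13 control light it was -0.84 (adjusted p = 0.0215), and the call was lost without Molm13 OE heavy (adjusted p = 0.0958), Molm13 OE light (0.0699), U937 OE heavy (0.203) or U937 control heavy (0.158). This fit counts the pools of a gradient as separate libraries. With the pools of each gradient summed, DOHH was at -1.09 (adjusted p = 0.116), in a fit that called 0% of all genes.

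EIF5A was at 216 and 140 CPM in the heavy pools labelled OE of Molm13 and U937, against 262 and 350 CPM in those of controls. Light pools labelled OE held 57.2 and 38.7 CPM of EIF5A, against 169 and 83.4 CPM in controls. It was lower in 4 of 4 pairs with no overlap within a pool (log2 fold change -1.11, SE 0.29, adjusted p = 0.0512). It passed with DESeq2 (adjusted p = 0.00282), with limma voom (0.0384) and with edgeR and no filter on low counts (0.00687). With the pools of each gradient summed EIF5A was at -1.06 (adjusted p = 0.116), in a fit that called 0% of all genes. With 1 library left out it ran from -1.37 (without Molm13 control heavy) to -0.81 (without U937 control heavy). Without Molm13 control light it was at -0.89. GPS2, which overlaps EIF5A, was at -0.82 (SE 0.28, adjusted p = 0.107).

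For the other genes, SRM was at -0.54 (adjusted p = 0.237), ODC1 at -0.45 (0.347), SMS at -0.29 (0.546), AMD1 at -0.17 (0.769) and DHPS at 0.05 (0.940). SRM was lower under the OE label in 4 of 4 pairs, by 0.38 to 0.76 on the log2 scale. The values of SAT1 (0.65, adjusted p = 0.281), AZIN1 (0.58, 0.250) and OAZ1 (0.34, 0.649) were positive. SAT1 passed without Molm13 control light (1.04, adjusted p = 0.00455), where OAZ1 was at 0.74, ODC1 at -0.64, SRM at -0.57, AZIN1 at 0.41, AMD1 at -0.41, DHPS at 0.34 and SMS at -0.19, none of them past the threshold. Without U937 control light SAT1 was at 0.27, and without Molm13 control heavy OAZ1 was at 0.063.

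Within the heavy pools 0 of the 10 genes passed, against 0.00412% of all genes tested, and none had an unadjusted p under 0.05 with edgeR; DESeq2 and limma voom also called 0. DOHH and EIF5A were both at -0.86 (adjusted p = 0.336 and 0.354). They were at -0.40 and -0.30 without U937 control heavy, at -1.31 and -1.38 without Molm13 control heavy, and at -0.82 and -0.83 without Molm13 control light. Within the light pools 0 passed with edgeR, against 0% of all genes tested, with 3 of 10 at an unadjusted p under 0.05. These were DOHH (-1.63, adjusted p = 0.146), EIF5A (-1.37, 0.182) and AZIN1 (1.01, 0.276), and DESeq2 called DOHH and EIF5A, limma voom none of the 10. All 3 passed without U937 control light, with DOHH at -2.25, in a fit that called 7.17% of all genes, and 0 passed without Molm13 control light (3.22% of all genes), with DOHH at -0.86.

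Of 12 markers of other cell types, 9 were below 0.1 CPM in every library, among them CD3E, CD2, MS4A1, HBB and EPCAM. CD79A and COL1A1 reached at most 1.73 CPM. The T cell gene CD3D was the highest of the list and differed between the labels in the heavy pools, at 70.5 and 120 CPM under OE, against 13.8 and 7.02 CPM in controls. In the light pools it was at 15.5 and 24.3 CPM under OE, against 32.0 and 1.40 CPM in controls. The summed list was at 73.0 and 122 CPM in the OE heavy pools and 14.6 and 7.98 CPM in the control heavy pools. Without CD3D the sum was 2.49 and 2.04 CPM in the OE heavy pools and 0.851 and 0.959 CPM in the control heavy pools. In the light pools the sum was 16.02 and 25.14 CPM under OE, against 33.14 and 1.60 CPM in controls. Its part in the genotype results was not tested.

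**Figure D3:**
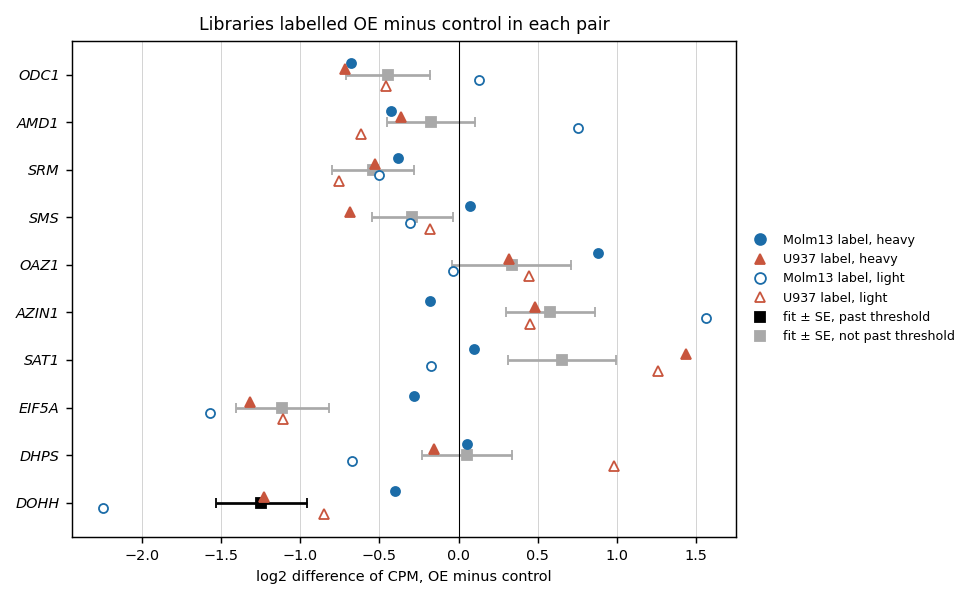
Log2 difference of CPM, libraries labelled OE minus control, for each of the 10 genes; coloured points are the 4 matched pairs (filled for the heavy pool, open for the light pool), and squares are the fit over both pools with its SE, black where the adjusted p was under 0.05. DOHH, EIF5A and SRM lay left of 0 in all 4 pairs, and the DOHH fit is the only black square.

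Between line labels, the widest spread in pool distribution was that of OAZ1. Under the Molm13 label its heavy minus light difference was 0.13 (OE) and -0.78 (control) on the log2 scale, against 1.10 (OE) and 1.22 (control) under U937. The line by pool term was -1.48 (SE 0.66, unadjusted p = 0.0424, adjusted p = 1), and 0 of 10 genes passed, against 0% of all genes tested; OAZ1 was the only 1 of the 10 at an unadjusted p under 0.05. For the genotype labels the widest line difference was that of SAT1. It was at 121 CPM in Molm13 OE heavy and 113 CPM in Molm13 control heavy, but at 183 CPM in U937 OE heavy and 67.7 CPM in U937 control heavy. Under U937 its OE minus control difference was 1.44 in the heavy and 1.26 in the light pool, while under Molm13 it was 0.10 and -0.17. The line by genotype term was -1.38 (SE 0.62, unadjusted p = 0.0381, adjusted p = 0.858), and 0 of 10 passed, against 0.132% of all genes tested. It passed without Molm13 control heavy (-1.86, adjusted p = 0.0191) or U937 control heavy (-1.85, adjusted p = 0.0217). DESeq2 and limma voom called 0 of the 10 in both line comparisons, and without Molm13 control light the terms were -1.24 for OAZ1 and -0.93 for SAT1. Each line label holds 1 gradient per genotype, so the line by genotype term was tested against the spread between the pools of a gradient. The line by pool term was tested partly against the spread between gradients. As given above, few genes separated the line labels themselves, which limits what a difference between them can mean.

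Of 30 further genes around the pathway, 27 passed the filter on low counts; ARG1, SLC18B1 and LIN28B had 13, 24 and 1 counts over all 8 libraries. Of the 27, 10 were higher and 4 lower in the heavy pools, against 28.6% of all genes tested that passed in either direction. The median was 0.65, against -0.04 for all genes tested. Among genes that supply ornithine, mitochondrial arginase ARG2 was lower (log2 fold change -1.62, SE 0.26, adjusted p = 0.00121). ARG2 was at 24.3, 28.4, 30.3 and 31.4 CPM in the heavy pools of Molm13 OE, Molm13 control, U937 OE and U937 control, against 80.5, 59.7, 87.8 and 130 CPM in the light pools, with no overlap. Ornithine aminotransferase OAT (0.91, SE 0.23) and the amino acid transporter heavy chain SLC3A2 (1.15, SE 0.29) were higher. Unlike OAZ1, the other antizymes passed, with OAZ2 at 1.13 (SE 0.26) and OAZ3 at 1.06 (SE 0.29), though the difference between antizymes was not tested. Exon overlaps with neighbouring genes were looked up only for the 10 genes, so counts of OAZ2, OAZ3 and the other further genes may include reads of neighbours.

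In the methionine salvage route, which recycles the by-product of spermidine and spermine synthesis, 3 of 5 enzymes passed, all higher in the heavy pools, against 15.8% of all genes tested that were higher. They were ADI1 (1.52, SE 0.32), APIP (1.07, SE 0.30) and MTAP (0.67, SE 0.22, past the threshold in 1 of 8 fits that left out 1 library), while MRI1 (0.40) and ENOPH1 (0.55) did not pass. MAT2B, the regulatory subunit of methionine adenosyltransferase, was at 0.78 (SE 0.27, adjusted p = 0.0483), and the catalytic MAT2A at -0.45 (adjusted p = 0.187). The lysosomal polyamine exporter ATP13A2 was higher (1.26, SE 0.26) and its relative ATP13A3, which acts in polyamine uptake, lower (-0.82, SE 0.26). Around eIF5A, its nuclear exporter XPO4 (-0.84, SE 0.28) and its acetyltransferase KAT2B (-1.06, SE 0.31) were lower. EIF5AL1 was higher (2.07, SE 0.48) on levels of 0.139 to 2.92 CPM, and EIF5A2 was at -0.27 (not past the threshold) on levels of 0.894 to 2.68 CPM. Single libraries ended several of these calls: ARG2, ATP13A2 and ADI1 passed in all 8 fits that left 1 library out, EIF5AL1 and OAZ2 in 7, OAT, SLC3A2 and APIP in 6, OAZ3 and KAT2B in 5, and ATP13A3, XPO4 and MAT2B in 2. All 14 passed without Molm13 control light.

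For the genotype labels over both pools, 1 of the 27 passed, against 4.37% of all genes tested. SLC7A1, the arginine and ornithine importer, was at 28.2 and 34.7 CPM in the heavy pools labelled OE of Molm13 and U937, against 79.3 and 66.2 CPM in controls. Light pools labelled OE held 27.7 and 29.5 CPM, against 39.3 and 53.5 CPM in controls. All OE libraries lay below all control libraries (log2 fold change -0.96, SE 0.23, adjusted p = 0.0389). The call was lost with the pools of each gradient summed (-0.94, adjusted p = 0.132), where 0% of all genes passed. With no line term, where 0.478% passed, SLC7A1 lost it too (-0.95, adjusted p = 0.0741). It passed without Molm13 control light (-1.05, adjusted p = 0.00152) or U937 control light, and without any other single library the adjusted p was 0.0639 to 0.219. EIF5AL1, on the low levels given above, was at -1.38 (SE 0.46, adjusted p = 0.0990). MYC, a transcription factor that induces ODC1, was at -0.61 (adjusted p = 0.154). SIRT2, an eIF5A deacetylase, was at 0.91 (adjusted p = 0.115), and at 1.49 without Molm13 control light.

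**Figure D4:**
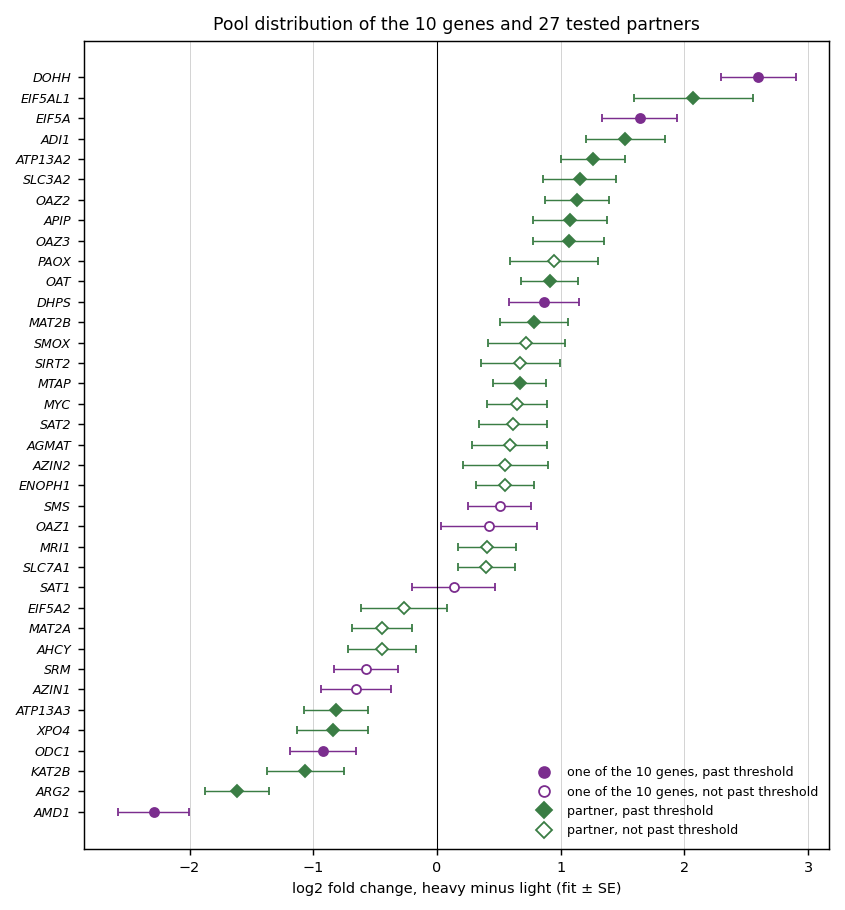
Fitted log2 fold change, heavy minus light over both genotypes, with its SE for the 10 genes (circles) and the 27 tested partner genes (diamonds), filled where the adjusted p was under 0.05. DOHH lies at the top, at 2.60, and AMD1 at the bottom, at -2.29.

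The levels of the hypusine genes over the 8 libraries were set beside those of 9299 genes with a mean of at least 10 CPM, by Pearson's r on log2(CPM + 1), as a description of libraries that share their split into pools. DOHH was most like MTG2 (r = 0.998), MTRFR (0.997) and RRP7A (0.997). DHPS was most like DMAC2 (0.985), CPNE1 (0.981) and PPP2R1A (0.980), and EIF5A like ENSG00000250186 (0.996), SPR (0.994) and ATP5MC1 (0.994). Between DOHH and EIF5A r was 0.979, between DOHH and DHPS 0.815 and between DHPS and EIF5A 0.697. Such values were not particular to the hypusine genes. SMS was at 0.838 with DOHH, 0.871 with EIF5A and 0.628 with DHPS, and AMD1 at -0.869, -0.777 and -0.889 in the same order.

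The leaders of the 10 reference transcripts differed in their upstream reading frames. AZIN1 had 6, DOHH 4, EIF5A 3, ODC1 2, and AMD1 and SAT1 1 each, while SRM, SMS, OAZ1 and DHPS had 0. Of the genes called higher in the heavy pools DOHH had 4 such frames, EIF5A 3 and DHPS 0. Of those called lower ODC1 had 2 and AMD1 1. AZIN1, with the most, was at -0.66 and did not pass. A link between upstream frames and pool distribution was not tested. The counts are those of 1 annotated transcript per gene, and which transcripts these cells used was not measured. Transcripts were ranked by their principal grade in the annotation, then by length of coding sequence, then by total length. This ranking can favour long leaders, here and in the share over all genes given above.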

How the data were processed

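The 8 libraries hold RNA from heavy and light gradient pools, prepared with a Smart-seq kit per the labels' protocols. The submitters' processing notes name cutadapt, STAR, featureCounts and GRCh38, and the sources used here give no versions, annotation release or strand setting. The authors deposited unnormalized read counts for 78932 Ensembl gene IDs. The counts of TALAM1, antisense to MALAT1, were 99.95% to 99.98% of those of MALAT1, so a read in a shared stretch went into both genes.

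The members and gene lists were chosen with earlier results of these data known. All 10 members, OGFOD1 and the 3 genes most like DOHH, DHPS and EIF5A are named by rule. So are partner genes past the threshold or among the 4 of smallest p. For partners this covers heavy minus light over both genotypes and OE minus control over both pools, not the other comparisons. Other genes were chosen after their values were seen. Some markers of other cell types are not reported here. Tests used the quasi-likelihood method of edgeR 4.0.16 in R 4.3.3, after TMM scaling and filterByExpr, with terms for the 4 groups and the line label, leaving 3 residual degrees of freedom and a biological coefficient of variation of 0.359. Terms for differences between line labels leave 2. P-values were adjusted by Benjamini-Hochberg over 24289 genes, with a threshold of 0.05. SEs of log2 fold changes derive from the F statistic. CPM values were computed here from the deposited counts. Positions and transcripts come from GENCODE 29, which need not be the authors' release. The scripts were tested on simulated counts.

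Pairing of libraries follows from the line labels, as replicates of the same number share a line (replicate 1 is Molm13, replicate 2 U937). Deviations from group means correlated between groups at 0.0169 to 0.338. Alternatives were DESeq2 1.42.0, limma voom 3.58.1, upper-quartile scaling, no filter, no line term, the gradient as a block, summed gradients, copies added to EIF5A and its like, and each library left out. Counting error alone is small for these genes, whose lowest count was 286, and covers no other source of error.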

Additional observations from a re-analysis of the deposited data

Results flagged for a closer look

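SAT1 was set apart because its heavy minus light difference ran in opposite directions under the line labels. Its mean over the 2 gradients labelled Molm13 was -0.29 on the log2 scale (-0.16 for OE and -0.43 for control), and over the 2 labelled U937 it was 0.57 (0.66 for OE and 0.48 for control). The line by pool term was -0.87 (SE 0.69, unadjusted p = 0.229, adjusted p = 1), so the difference did not pass its test.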

How the results depend on the processing

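Alternatives kept the direction of all 10 genes in the heavy minus light comparison except SAT1, which was at -0.050 with upper-quartile scaling and from -0.26 to 0.58 with 1 library left out. Upper-quartile scaling shifted the median of all genes by -0.18 in that comparison, -0.27 under OE alone, 0.16 for OE minus control in the light pools and -0.17 in the interaction. Relative to that median SAT1 was at 0.17 under both scalings, and DHPS at 0.91. In OE minus control over both pools, AMD1 was at 0.083 and DHPS at -0.083 with gradients summed, and from -0.41 to 0.083 and from -0.25 to 0.34 with 1 library left out. Of the 10 genes, 5 passed in heavy minus light (28.6% of all genes tested) and 3 with no replicate block (no line term, 22.2%). In that comparison 7 passed with DESeq2 (32.8%) and 6 with upper-quartile scaling (29.5%). In control cells 2 passed (1.08%), and 0 with no replicate block (0%). There 3 passed with DESeq2 (7.81%) or no filter (2.89%). With the gradient as a replicate block 5 passed over both genotypes (29.3%) and 2 in control cells (2.66%). Under OE 3 passed with that block (22.1%), and ODC1 was at -1.18 (adjusted p = 0.0550). With DESeq2 (26.2%) or upper-quartile scaling (21.7%) 5 passed under OE. OE minus control over both pools called 1 (4.37% of all genes tested), but 2 with DESeq2 (10.9%), limma voom (5.21%) or no filter (5.15%). It called 0 with no replicate block (0.478%) or gradients summed (0%). A call lost in the summed fit was thus not particular to 1 gene. In the light pools OE minus control called 0 (0%), but 2 with DESeq2 (3.83%) and 1 with no filter (1.26%). The OE minus control difference had 1 direction in 4 of 4 pairs for 3 genes, and for 5 with upper-quartile scaling. With 1 library left out the counts ranged from 3 to 7 in heavy minus light, 0 to 6 under OE, 0 to 4 in control cells, 0 to 3 in OE minus control over both pools, 0 to 3 in the light pools and 0 to 1 for the line difference of OE minus control. Adding near-identical copies to a gene's row left every count as it was. The causes were not tested. With 2 libraries per group, a fit that leaves 1 out assumes that the lone library varies like the other groups. Depth limits EIF5AL1 and EIF5A2, whose counts fell as low as 7 and 32 reads.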
